A study of Mus musculus with 4 samples.

Results

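Immediate early genes and heat shock genes were examined in gonadal white adipose tissue (gWAT), a visceral fat depot, of mice that had received the SGLT2 inhibitor canagliflozin or no drug. The set was chosen by gene symbol and held 36 of the 45706 genes measured, 27 of them immediate early genes and 9 heat shock genes. All 36 averaged 1 TPM or more (TPM, transcript abundance per length, scaled to 1000000 in each sample) and so belonged to the 13788 genes tested. HFD+Cana mice were of the C57B6/N strain, ate a high-fat diet (HFD32) for 2 months and received food that held 0.03% canagliflozin by weight during 7 days (n = 2 mice). HFD mice had the same strain and diet and no canagliflozin (n = 2 mice). All 4 mice were thus on the high-fat diet, and no mice on normal chow were part of the comparison. Each library came from 1 mouse. The SE and interval of a difference come from the limma fit below, which combines a gene's spread between mice with that of all genes tested. Both classes of gene answer quickly to how a tissue is treated, and the sources used here do not give the interval between death and extraction of the RNA.

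Immediate early genes are switched on within minutes of a signal such as a growth factor, a hormone or mechanical strain, by transcription factors that are already in the cell, so that no new protein is needed. Their products are mostly short-lived transcription factors and feedback inhibitors of the same signals. Heat shock genes encode chaperones, which keep other proteins folded, and their inducible members are driven by the factor HSF1 when misfolded protein accumulates. In fat, as in other organs, both classes are known to respond to dissection, warming or cooling and loss of blood flow, as well as to hormones and feeding.

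The promoters of 6 members are printed here because the results turn on these genes: Hspa1a, Hspa1b and Hspb1 are the heat shock genes whose groups did not overlap, Ier3 had the smallest p-value of all members, and Fos and Nr4a1 were among the members that varied most between mice of 1 group. Each is the RefSeq window on GRCm38.p6 from 250 bases before to 50 bases after the start site, read 5′ to 3′ on the strand of the gene. Capitals mark a heat shock element of 2 units (TTCNNGAA or GAANNTTC) in the first 3 windows, and the TATA box (TATAAA) in Fos. The windows lie at chr17:34972107-34972406 (minus strand) for Hspa1a, chr17:34959189-34959488 (minus strand) for Hspa1b, chr5:135887669-135887968 (plus strand) for Hspb1, chr12:85473640-85473939 (plus strand) for Fos, chr15:101266596-101266895 (plus strand) for Nr4a1 and chr17:35821463-35821762 (plus strand) for Ier3.
Hspa1a: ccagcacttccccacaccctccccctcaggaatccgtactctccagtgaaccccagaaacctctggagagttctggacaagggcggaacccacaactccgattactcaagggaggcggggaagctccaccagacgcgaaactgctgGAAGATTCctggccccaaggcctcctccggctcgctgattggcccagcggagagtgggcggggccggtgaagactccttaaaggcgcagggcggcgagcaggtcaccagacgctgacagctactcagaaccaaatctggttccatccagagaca
Hspa1b: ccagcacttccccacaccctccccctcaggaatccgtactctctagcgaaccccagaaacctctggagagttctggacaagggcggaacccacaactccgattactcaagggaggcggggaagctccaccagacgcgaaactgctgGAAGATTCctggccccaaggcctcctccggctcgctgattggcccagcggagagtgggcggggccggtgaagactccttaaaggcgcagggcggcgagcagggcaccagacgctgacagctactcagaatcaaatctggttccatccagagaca
Hspb1: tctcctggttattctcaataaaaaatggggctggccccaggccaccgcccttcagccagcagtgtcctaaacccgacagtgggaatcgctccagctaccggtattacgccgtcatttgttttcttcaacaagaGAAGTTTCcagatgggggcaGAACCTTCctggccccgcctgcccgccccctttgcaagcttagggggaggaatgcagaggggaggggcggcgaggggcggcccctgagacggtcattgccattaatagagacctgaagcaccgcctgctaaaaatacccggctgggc
Fos: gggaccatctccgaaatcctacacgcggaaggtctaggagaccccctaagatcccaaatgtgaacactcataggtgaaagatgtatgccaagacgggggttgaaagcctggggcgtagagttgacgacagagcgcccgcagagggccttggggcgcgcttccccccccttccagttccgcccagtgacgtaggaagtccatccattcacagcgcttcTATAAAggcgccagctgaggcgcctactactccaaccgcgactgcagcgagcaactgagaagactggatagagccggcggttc
Nr4a1: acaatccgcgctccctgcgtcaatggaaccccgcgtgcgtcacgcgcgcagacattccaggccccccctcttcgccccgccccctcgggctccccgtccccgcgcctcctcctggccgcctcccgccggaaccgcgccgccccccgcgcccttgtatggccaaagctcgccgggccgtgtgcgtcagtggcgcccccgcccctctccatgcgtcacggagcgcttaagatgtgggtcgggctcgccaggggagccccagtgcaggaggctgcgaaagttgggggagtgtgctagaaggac
Ier3: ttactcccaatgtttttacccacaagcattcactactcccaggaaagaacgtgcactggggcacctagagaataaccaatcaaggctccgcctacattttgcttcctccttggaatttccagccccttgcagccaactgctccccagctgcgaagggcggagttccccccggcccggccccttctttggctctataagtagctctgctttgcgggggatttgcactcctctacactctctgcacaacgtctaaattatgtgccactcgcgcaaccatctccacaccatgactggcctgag

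The windows of Hspa1a and Hspa1b were identical at 296 of 300 positions, with the element at the same place, at -104 from the start site. Windows were found for 29 of the 36 members, and motifs were searched on both strands. The element of 2 units was present in 6 of the 7 heat shock genes with a window (Bag3, Hspa1a, Hspa1b, Hspb1, Hspd1 and Hsph1) and in 3 of the 22 immediate early genes with a window (Egr2, Fosl2 and Jun), against 15.1% of all 32851 windows. The element of 3 units, which contains that of 2 units, occurred in Hspd1 and Hsph1 and in 0.603% of all windows. The CArG box, the site of serum response factor, was present in Dusp5, Egr2 and Zfp36 and in 1.63% of all windows. The cAMP response element (TGACGTCA) was present in Btg2 and Dusp1 and in 1.79% of all windows, and the AP-1 site (TGANTCA) in Bag3 and in 7.81% of all windows. The letters TATAAA were present at -33 in Fos, at 0 in Junb and at -164 in Nr4a2, and in 13.6% of all windows. A match was counted at any place in the window, whether or not it acts as a TATA box. A gene with several start sites was counted once if any of its windows held the motif.

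The tissue carried the markers of fat, all 12 of which were tested. Adipoq, the hormone adiponectin, had 3926 and 4551 TPM in HFD+Cana mice, against 3645 and 4124 TPM in HFD mice, and its groups overlapped. Plin1, which coats the lipid droplet, had 546 and 563 TPM in HFD+Cana mice, against 691 and 713 TPM in HFD mice, and Lep, the hormone leptin, had 1397 and 1795 TPM in HFD+Cana mice, against 2621 and 2725 TPM in HFD mice. Of the 12 adipocyte markers 0 passed the test, 5 had both HFD+Cana mice below both HFD mice, 2 had both above, and their median log2 fold change was -0.11. Over all genes tested, 19.8% had both HFD+Cana mice below and 24.3% had both above. Markers of cells beside the adipocyte also moved with the groups or with single mice. All 12 tested mesothelial markers had both HFD+Cana mice above both HFD mice, and the 13 markers summed to 198 and 335 TPM in HFD+Cana mice, against 63.1 and 50.1 TPM in HFD mice. Of 12 hepatocyte markers, 3 passed the test as higher in HFD+Cana mice and 10 had groups that did not overlap in that direction, with Ttr listed at 0 in both HFD mice. Their sum ran the other way, at 8909 and 8372 TPM in HFD+Cana mice, against 15156 and 11174 TPM in HFD mice. Hp, haptoglobin, named after its values were seen, was the 1 marker with both HFD+Cana mice below. It had 7226 and 5729 TPM in HFD+Cana mice, against 14363 and 9547 TPM in HFD mice. Hp thus made up most of the sum in every mouse, so that sum mostly reads this 1 marker and not the list. The 10 markers of fibroblasts and progenitors summed to 3466 and 2604 TPM in HFD+Cana mice, against 2455 and 2409 TPM in HFD mice, with 5 above without overlap and 0 past the adjusted threshold. The 11 markers of T cells and neutrophils summed to 34.9 and 39.2 TPM in HFD+Cana mice, against 143 and 71.7 TPM in HFD mice, and 6 of the 7 tested had a fold change below 0. Only 1 of these 7 had both HFD+Cana mice below both HFD mice, 6 had groups that overlapped, and their median log2 fold change was -0.17. The list pools T cells with neutrophils, and the tested genes had a median level of 3.27 TPM, so the sum reads neither type alone. The 7 red blood cell markers summed to 14392 and 6673 TPM in HFD+Cana mice, against 1757 and 5941 TPM in HFD mice. The 12 macrophage markers summed to 5285 and 3023 TPM in HFD+Cana mice, against 4324 and 3031 TPM in HFD mice, so that replicate 1 was the higher mouse of each group. The part of these cells in the results below was not tested, and in bulk tissue fewer cells of a type cannot be told apart from less RNA per cell. TPM keeps no record of sequencing depth, so the counting error of single values is unknown.

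Values in the text are given as replicate 1 and then replicate 2 of each group. The 27 immediate early genes summed to 984 and 1199 TPM in HFD+Cana mice, against 1111 and 892 TPM in HFD mice, or 0.0984% and 0.12% against 0.111% and 0.0892% of all TPM. The 9 heat shock genes summed to 2139 and 1884 TPM in HFD+Cana mice, against 2393 and 1792 TPM in HFD mice. For either class the HFD+Cana mice thus lay between the 2 HFD mice, except that HFD+Cana replicate 2 was the highest in the immediate early sum. The constitutive chaperone Hspa8 made up between 57.0% and 62.8% of the heat shock sum in each of the 4 mice.

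None of the 36 members passed the test between HFD+Cana and HFD mice. The test was limma on log2(TPM + 1), two-sided, with Benjamini-Hochberg adjustment over all 13788 genes and a threshold of 0.05, by which 0.0435% of all genes (6 genes) were higher and 0% were lower in HFD+Cana mice. Without adjustment, 4 immediate early genes (Ier3, Klf4, Klf2 and Socs3) and 1 heat shock gene (Hspa1a) had a limma p under 0.05 as higher and 0 members as lower, against 5.32% of all genes higher and 5.45% lower. The median log2 fold change was 0.05 for the immediate early genes and -0.02 for the heat shock genes, against 0.02 for all genes tested. With 2 mice against 2, an exact permutation test of a single gene cannot give a two-sided p below 0.333. A p that misses the threshold does not show that a gene was unchanged, and the 95% interval of each difference is given for the genes described. Differences on the log2(TPM + 1) scale understate the change of genes near 1 TPM.

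**Figure D1:**
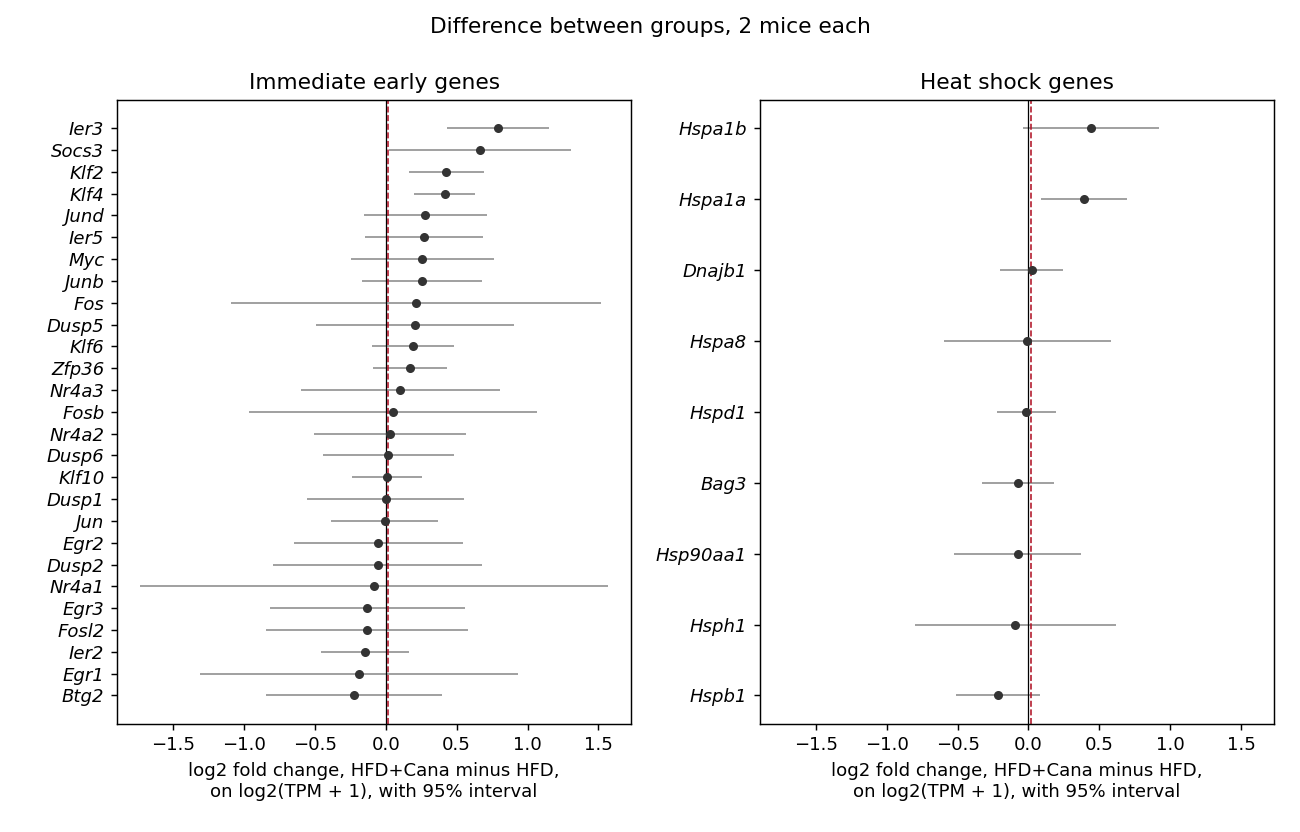
Log2 fold change (HFD+Cana minus HFD, on log2(TPM + 1)) of the 27 immediate early genes (left) and the 9 heat shock genes (right), each point 1 gene with its 95% interval from limma, n = 2 mice each; the dashed line is the median of all genes tested. Most intervals include 0, Ier3 has the highest value at 0.79, and Nr4a1 has the widest interval, -1.73 to 1.57.

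Of the 27 immediate early genes, 6 had both HFD+Cana mice above both HFD mice (Ier3, Klf2, Klf4, Klf6, Zfp36 and Socs3), and 0 had both below. Over all genes tested, 24.3% had both HFD+Cana mice above and 19.8% had both below, so the 22.2% of immediate early genes above lies near the background. These counts moved when a mouse was left out, since 1 mouse then stood against 2. With HFD+Cana replicate 1 left out, 13 were above, as were 36.1% of all genes. With HFD replicate 1 left out, 16 were above, as were 38.4% of all genes. Those below numbered 7 with HFD+Cana replicate 2 left out, 1 with HFD replicate 1 left out and 10 with HFD replicate 2 left out, where 30.1%, 29.9% and 34.5% of all genes were below. Among the 9 heat shock genes, Hspa1a and Hspa1b were above and Hspb1 was below, which is 22.2% and 11.1% of the list. Without HFD replicate 1 the count above was 6, where 38.4% of all genes were above. The count below was 2 with either HFD+Cana mouse left out, where 38.4% (replicate 1) and 30.1% (replicate 2) of all genes were below, and 6 without HFD replicate 2, where 34.5% were.

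The largest differences among the immediate early genes lay between mice of 1 group. Nr4a1, a nuclear receptor without a known natural ligand that is induced by many stimuli, had 7.32 and 28.8 TPM in HFD+Cana mice, against 18.3 and 13.4 TPM in HFD mice. The 2 HFD+Cana mice were thus the lowest and the highest of the 4, 3.94-fold apart, with the HFD mice between them. The difference between groups was -0.08 (SE 0.63, 95% interval -1.73 to 1.57, limma adjusted p = 0.972), and it moved with the mouse left out, to 0.84 when HFD+Cana replicate 1 was dropped and to -1.0 when HFD+Cana replicate 2 was.

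Egr1, a zinc finger transcription factor of the serum and growth factor response, showed the same order. It had 34.3 and 83.9 TPM in HFD+Cana mice, against 65.5 and 57.5 TPM in HFD mice, with the HFD+Cana mice 2.44-fold apart on either side of the HFD mice. Its difference was -0.19 (SE 0.43, interval -1.31 to 0.93, limma adjusted p = 0.899) and turned to 0.44 without HFD+Cana replicate 1. Fosb, a partner of Jun proteins in the AP-1 factor, had 1.71 and 4.47 TPM in HFD+Cana mice, against 2.21 and 3.30 TPM in HFD mice. HFD+Cana replicate 1 was again the lowest and replicate 2 the highest, 2.61-fold apart. The difference of Fosb was 0.05 (SE 0.39, interval -0.97 to 1.07), and -0.46 without HFD+Cana replicate 2.

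Fos, the AP-1 subunit most used as a marker of recent stimulation, had 48.9 and 111 TPM in HFD+Cana mice, against 88.2 and 45.8 TPM in HFD mice. HFD+Cana replicate 2 was the highest, HFD replicate 1 came next, and the other two mice were close to each other, so the groups overlapped. The mice were 2.27-fold apart within HFD+Cana and 1.93-fold apart within HFD, and the difference between groups was 0.21 (SE 0.50, interval -1.09 to 1.51, limma adjusted p = 0.902). It was -0.37 when HFD+Cana replicate 2 was dropped and -0.25 when HFD replicate 2 was. The ratio of Fos to Jun, on the TPM scale, was 1.16 and 2.49 in HFD+Cana mice, against 1.78 and 1.20 in HFD mice. Jun itself varied little, at 42.2 and 44.6 TPM in HFD+Cana mice, against 49.5 and 38.3 TPM in HFD mice, with an interval of the difference from -0.38 to 0.37.

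**Figure D2:**
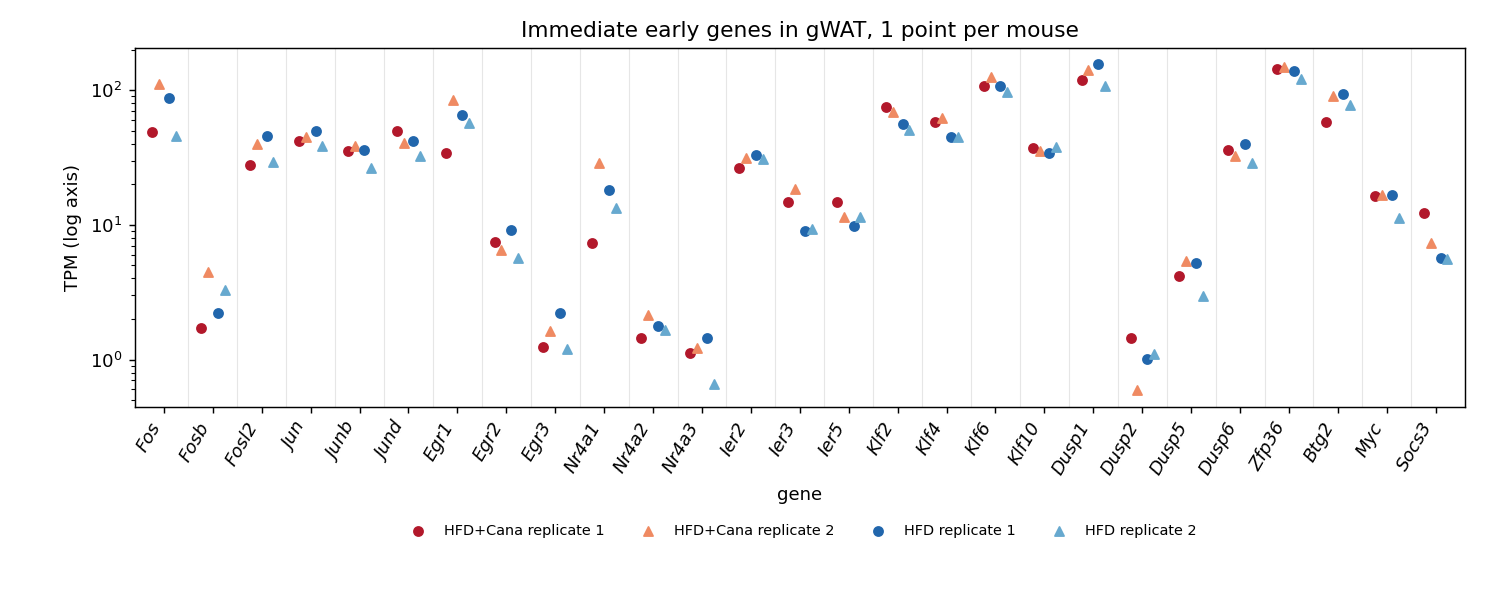
TPM (log axis) of the 27 immediate early genes, 1 point per mouse, HFD+Cana mice in red and orange and HFD mice in blue. The HFD+Cana replicate 2 triangle stands at the top for Fos, Fosb, Egr1 and Nr4a1, and both HFD+Cana points stand above both HFD points for Ier3, Klf2, Klf4, Klf6, Zfp36 and Socs3.

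The other AP-1 genes had groups that overlapped. Fosl2 had 28.0 and 39.7 TPM in HFD+Cana mice, against 45.6 and 29.4 TPM in HFD mice, and the lowest and the highest mouse came from different groups. Junb, which competes with Jun for partners, had 35.6 and 38.5 TPM in HFD+Cana mice, against 35.7 and 26.5 TPM in HFD mice. Jund, the subunit that is present in resting cells, had 49.8 and 40.8 TPM in HFD+Cana mice, against 41.8 and 32.6 TPM in HFD mice. For both Junb and Jund, HFD replicate 2 was the lowest mouse, and the differences of 0.26 and 0.28 had intervals from -0.16 to 0.68 and from -0.15 to 0.72. The exons of Jund overlapped those of an antisense gene, Gm11175, over 52.6% of their bases, and the sources used here do not say whether the counting used strand.

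Egr2 and Egr3, relatives of Egr1, did not follow it. Egr2 had 7.40 and 6.55 TPM in HFD+Cana mice, against 9.15 and 5.71 TPM in HFD mice, so both HFD+Cana mice lay between the HFD mice. Egr3 had 1.24 and 1.64 TPM in HFD+Cana mice, against 2.23 and 1.19 TPM in HFD mice, again within the range of the HFD mice. Nr4a2 and Nr4a3, the relatives of Nr4a1, were near the lower limit of the test. Nr4a2 had 1.45 and 2.14 TPM in HFD+Cana mice, against 1.78 and 1.65 TPM in HFD mice, the same order as Nr4a1 with a smaller spread of 1.48-fold. Nr4a3 had 1.11 and 1.22 TPM in HFD+Cana mice, against 1.46 and 0.654 TPM in HFD mice. Here the HFD mice were the ones apart, 2.23-fold, with HFD replicate 2 the lowest. Nr4a1 exceeded Nr4a2 in TPM by 5.06-fold and 13.5-fold in HFD+Cana mice, against 10.3-fold and 8.12-fold in HFD mice.

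Btg2, an antiproliferative cofactor of mRNA decay, had 58.4 and 90.7 TPM in HFD+Cana mice, against 93.6 and 77.4 TPM in HFD mice. HFD+Cana replicate 1 was the lowest mouse, as it was for Fosb, Egr1, Nr4a1 and Nr4a2, and the difference of -0.22 was the lowest of the 36 members (interval -0.84 to 0.40). Ier2, a nuclear protein of the growth factor response, had 26.2 and 31.5 TPM in HFD+Cana mice, against 33.0 and 30.7 TPM in HFD mice. It too was lowest in HFD+Cana replicate 1, with a difference of -0.14 (interval -0.46 to 0.17). Dusp2, a phosphatase that inactivates MAP kinases, ran the other way at a low level, with 1.45 and 0.591 TPM in HFD+Cana mice, against 1.02 and 1.09 TPM in HFD mice. Here HFD+Cana replicate 1 was the highest and replicate 2 the lowest, 2.45-fold apart.

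**Figure D3:**
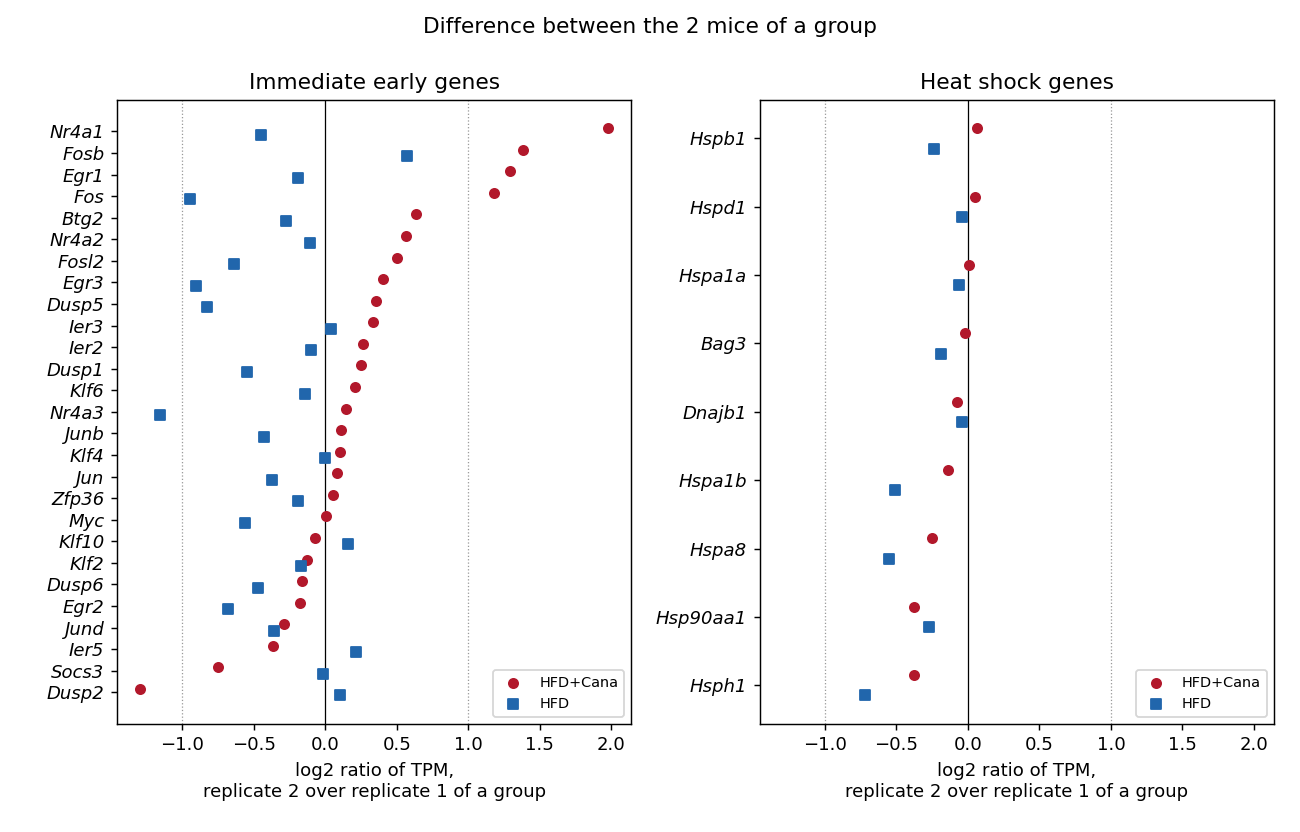
Log2 ratio of TPM of replicate 2 over replicate 1 within HFD+Cana (red circles) and within HFD (blue squares), for the 27 immediate early genes (left) and the 9 heat shock genes (right); dotted lines mark a 2-fold ratio. Nr4a1, Fosb, Egr1 and Fos lie beyond 2-fold to the right in HFD+Cana and Dusp2 beyond 2-fold to the left, and all 9 heat shock genes stay within 2-fold in both groups.

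Over the whole list, 5 immediate early genes differed by more than 2-fold between the HFD+Cana mice and 1 differed so between the HFD mice, where 3.89% and 3.13% of all genes tested did. In HFD+Cana mice 19 of the 27 were higher in replicate 2, and in HFD mice 5 of the 27 were, against 44.0% and 45.1% of all genes. HFD replicate 2 was the lowest of the 4 mice in 16 immediate early genes and HFD+Cana replicate 1 in 7. HFD+Cana replicate 2 was the highest mouse in 11 and HFD replicate 1 in 10. The median residual SD of log2(TPM + 1) within groups was 0.261 for immediate early genes and 0.123 for heat shock genes, against 0.120 for all genes. For the 19 immediate early genes that averaged 10 TPM or more it was 0.215, against 0.102 for all genes at that level. The replicate numbers come from the sample names and have no order. Marker sums above also separated the mice within groups. The macrophage sum was higher in replicate 1 of each group, as the immediate early sum was within HFD but not within HFD+Cana. The red blood cell sum was higher in replicate 1 within HFD+Cana and in replicate 2 within HFD, the reverse of the immediate early sum. The part of these cells was not tested.

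Ier3, a gene linked to cell survival under stress, had the largest difference between groups and the smallest p-value of the 36 members. It lies at chr17:35821684-35822923 on the plus strand (GRCm38) and had 14.7 and 18.6 TPM in HFD+Cana mice, against 9.02 and 9.27 TPM in HFD mice. The groups did not overlap, and the gap between them exceeded the spread within either. The difference was 0.79 (SE 0.14, interval 0.43 to 1.15, limma adjusted p = 0.238), and it ran from 0.61 to 0.95 over the 14 alternatives tried. Ier5, a gene of the same name family that is tied to HSF1 in human cells, had 14.7 and 11.4 TPM in HFD+Cana mice, against 9.82 and 11.4 TPM in HFD mice. Its groups met at 11.4 TPM, and the difference was 0.27 (interval -0.15 to 0.68).

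The Krüppel-like factors Klf2 and Klf4, transcription factors best known from endothelium under flow, were both higher in HFD+Cana mice without passing the test. Klf2 had 75.2 and 69.0 TPM in HFD+Cana mice, against 56.4 and 50.3 TPM in HFD mice. Klf4 had 58.2 and 62.6 TPM in HFD+Cana mice, against 45.0 and 45.0 TPM in HFD mice. The groups did not overlap for either gene, with differences of 0.43 (SE 0.10, limma adjusted p = 0.290) and 0.42 (SE 0.08, limma adjusted p = 0.264). The interval was 0.17 to 0.69 for Klf2 and 0.20 to 0.63 for Klf4. The ratio of Klf2 to Klf4 on the TPM scale was 1.29 and 1.10 in HFD+Cana mice, against 1.25 and 1.12 in HFD mice, so it varied more between mice than between groups.

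Endothelial markers did not share that direction. The 12 markers, all detected, summed to 1241 and 1412 TPM in HFD+Cana mice, against 1557 and 1550 TPM in HFD mice, and 11 of the 12 had a fold change below 0. Of the 12, 0 passed the test and 7 had groups that overlapped. The other 5 (41.7%) had both HFD+Cana mice below both HFD mice, against 19.8% of all genes tested. Pecam1, an adhesion protein of endothelial cells, had 180 and 182 TPM in HFD+Cana mice, against 214 and 194 TPM in HFD mice, with no overlap. Their part in the values of Klf2 and Klf4 was not tested. Klf6, a factor of injury and growth responses, had 108 and 125 TPM in HFD+Cana mice, against 107 and 96.5 TPM in HFD mice. The gap between the groups of Klf6 was narrower than the spread within either, its groups overlapped under median-of-ratios scaling, and the difference was 0.20 (interval -0.09 to 0.48). Klf10, an early target of TGFβ, had 37.0 and 35.2 TPM in HFD+Cana mice, against 33.9 and 37.9 TPM in HFD mice, within the range of the HFD mice.

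Feedback inhibitors showed 2 genes without overlap. Socs3, which shuts off cytokine and leptin receptor signaling, had 12.3 and 7.33 TPM in HFD+Cana mice, against 5.68 and 5.61 TPM in HFD mice. Both HFD+Cana mice were above the HFD mice, but they differed from each other by 1.68-fold while the HFD mice lay close together. The difference was 0.66 (SE 0.24, interval 0.02 to 1.31, limma adjusted p = 0.453), and it was 0.33 with HFD+Cana replicate 1 left out and 1.0 with HFD+Cana replicate 2 left out. HFD+Cana replicate 1 was also the mouse with the highest macrophage sum and the highest fibroblast and progenitor sum. The macrophage sums of the groups overlapped, those of fibroblasts and progenitors did not, and the part of either was not tested. Zfp36, tristetraprolin, which marks cytokine mRNA for decay, had 144 and 149 TPM in HFD+Cana mice, against 139 and 121 TPM in HFD mice. The groups did not overlap, but the gap between them was narrower than the spread between the HFD mice (difference 0.17, interval -0.09 to 0.43, limma adjusted p = 0.580).

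Among the MAP kinase phosphatases, Dusp1, which is nuclear and induced by stress and glucocorticoids, had 118 and 141 TPM in HFD+Cana mice, against 156 and 107 TPM in HFD mice. The HFD+Cana mice lay inside the range of the HFD mice, and the interval of the difference was -0.55 to 0.55. Dusp5, a phosphatase of nuclear ERK, had 4.18 and 5.35 TPM in HFD+Cana mice, against 5.23 and 2.95 TPM in HFD mice. Dusp6, a phosphatase of cytoplasmic ERK, had 36.1 and 32.3 TPM in HFD+Cana mice, against 39.6 and 28.6 TPM in HFD mice. In all 3 genes HFD replicate 2 was the lowest mouse, and the groups overlapped. Myc, a growth regulator, had 16.5 and 16.6 TPM in HFD+Cana mice, against 16.6 and 11.2 TPM in HFD mice, so that 3 mice were nearly level and HFD replicate 2 was lower (difference 0.26, interval -0.25 to 0.76).

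The inducible HSP70 genes Hspa1a and Hspa1b, the usual readouts of a heat shock response, were low and slightly higher in HFD+Cana mice. Hspa1a had 6.13 and 6.16 TPM in HFD+Cana mice, against 4.54 and 4.35 TPM in HFD mice. Hspa1b had 10.8 and 9.78 TPM in HFD+Cana mice, against 8.70 and 6.11 TPM in HFD mice. The groups did not overlap for either gene, and the gap was wider than the spread within groups for Hspa1a only. The differences were 0.39 (SE 0.11, interval 0.09 to 0.70, limma adjusted p = 0.375) and 0.44 (SE 0.18, interval -0.04 to 0.92, limma adjusted p = 0.482).

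These neighbouring genes are near-identical copies, at chr17:34969190-34972156 and chr17:34956436-34959238 on the minus strand (GRCm38), and their promoters printed above differ at few positions. Of the 31-base words of their transcripts, 63.8% of those of Hspa1a occur in Hspa1b and 67.6% of those of Hspa1b occur in Hspa1a, so the division of reads between them is uncertain. Their sum was 16.9 and 15.9 TPM in HFD+Cana mice, against 13.2 and 10.5 TPM in HFD mice, with no overlap and with the HFD mice further apart than the HFD+Cana mice. Hspa1a also overlaps the antisense gene Gm20481 over 19% of its exon bases. Hspa8, the constitutive HSP70 that folds new and worn proteins, had 1343 and 1128 TPM in HFD+Cana mice, against 1500 and 1022 TPM in HFD mice. It was thus 183-fold to 219-fold above Hspa1a in HFD+Cana mice, against 235-fold to 331-fold in HFD mice, on the TPM scale. The HFD+Cana mice lay within the range of the HFD mice for Hspa8 (interval -0.60 to 0.58).

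**Figure D4:**
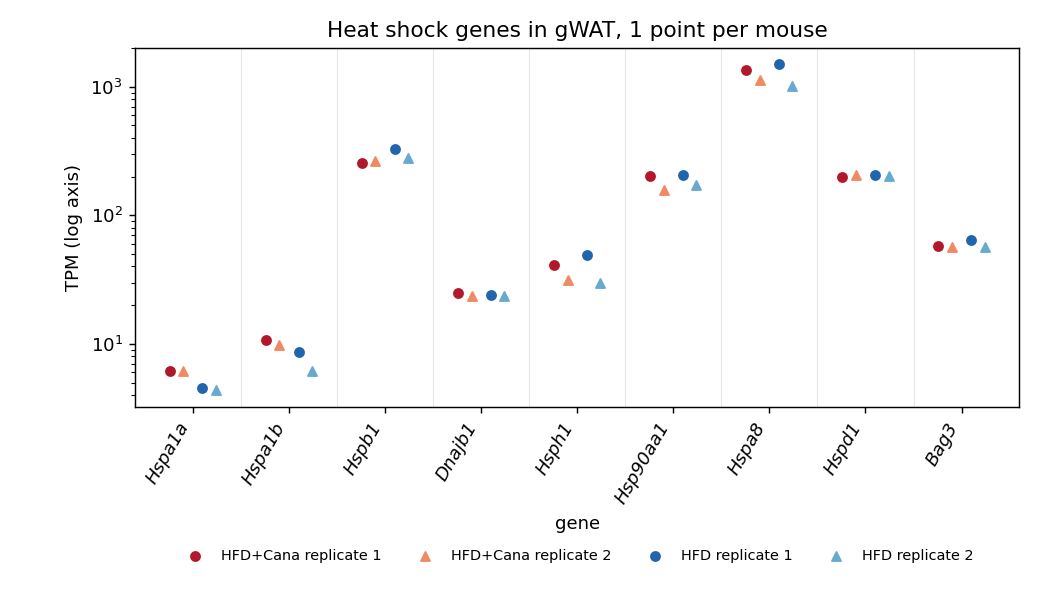
TPM (log axis) of the 9 heat shock genes, 1 point per mouse, HFD+Cana mice in red and orange and HFD mice in blue. Hspa1a and Hspa1b have both HFD+Cana points above both HFD points, Hspb1 has both below, and Hspa8 is the highest gene in every mouse, between 1022 and 1500 TPM.

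Hspb1, a small heat shock protein that holds unfolded proteins and binds actin, was the member with both HFD+Cana mice below both HFD mice. It had 253 and 265 TPM in HFD+Cana mice, against 327 and 277 TPM in HFD mice. The gap between the groups was narrower than the spread between the HFD mice, and the difference was -0.21 (SE 0.11, interval -0.51 to 0.08, limma adjusted p = 0.553). The pseudogene Hsp25-ps1 shares 52.3% of the 31-base words of Hspb1 and had 1.17 and 0.635 TPM in HFD+Cana mice, against 1.04 and 0.869 TPM in HFD mice. Hsp90aa1, the inducible HSP90, had 204 and 157 TPM in HFD+Cana mice, against 207 and 171 TPM in HFD mice, with replicate 1 the higher mouse in each group and an interval from -0.52 to 0.37.

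The partners of HSP70 had groups that overlapped. Dnajb1, the co-chaperone that hands clients to HSP70 and a sensitive HSF1 target, had 24.8 and 23.6 TPM in HFD+Cana mice, against 24.1 and 23.5 TPM in HFD mice. The 4 mice were nearly level, and the interval of the difference, -0.20 to 0.24, was among the narrowest of the members. Hsph1, a nucleotide exchange factor, had 41.0 and 31.6 TPM in HFD+Cana mice, against 49.2 and 30.0 TPM in HFD mice, with replicate 1 the higher mouse in each group. Bag3, a cochaperone of selective autophagy, had 58.1 and 57.1 TPM in HFD+Cana mice, against 64.7 and 56.7 TPM in HFD mice, and only HFD replicate 1 stood somewhat apart. Hspd1, the chaperonin of the mitochondrial matrix, had 198 and 205 TPM in HFD+Cana mice, against 207 and 201 TPM in HFD mice, with an interval from -0.22 to 0.19. Replicate 2 was below replicate 1 in all 9 heat shock genes within HFD and in 6 of 9 within HFD+Cana. Of all genes tested, 45.1% were higher in replicate 2 within HFD and 44.0% within HFD+Cana. Of 12 genes often used as constant references, 10 were lower in replicate 2 within HFD and 8 within HFD+Cana, so this order was not particular to heat shock genes. Other genes share 43.5% of the words of Hspa8, 51.4% of those of Hsp90aa1 and 50.1% of those of Hspd1, so part of their reads could be assigned elsewhere. The gene that shares most with each was low in every mouse: Gm15459 (Hspa8) had at most 4.66 TPM, Gm12346 (Hsp90aa1) 0.588 TPM and Hspd1-ps3 (Hspd1) 0.951 TPM.

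A wider list of 43 immediate early genes that are not members was set beside them, of which 42 were tested and 0 passed. Without adjustment, 4 had a limma p under 0.05 as higher (9.52%) and 1 as lower (2.38%), against 5.32% and 5.45% of all genes. Of the 42, 10 (23.8%) had both HFD+Cana mice above both HFD mice and 1 (2.38%) had both below. Over all genes tested, these shares were 24.3% and 19.8%. The 4 with the smallest p were Zfp36l2, Ptgs2, Bhlhe40 and Pim1. Ptgs2, the prostaglandin synthase COX-2, had 1.52 and 2.41 TPM in HFD+Cana mice, against 0.357 and 0.625 TPM in HFD mice, with no overlap (difference 0.98, SE 0.25, limma adjusted p = 0.325). Zfp36l2, an RNA-binding relative of Zfp36, had 103 and 93.0 TPM in HFD+Cana mice, against 77.2 and 68.4 TPM in HFD mice (difference 0.43, limma adjusted p = 0.307). Bhlhe40, a repressor tied to the circadian clock, had 17.2 and 14.1 TPM in HFD+Cana mice, against 9.41 and 11.4 TPM in HFD mice (difference 0.54, limma adjusted p = 0.359). Pim1, a survival kinase, had 14.8 and 14.9 TPM in HFD+Cana mice, against 11.6 and 12.3 TPM in HFD mice (difference 0.30, limma adjusted p = 0.401). For each of these genes both HFD+Cana mice were the higher ones, while the median of the list was 0.09.

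Of 47 further heat shock and chaperone genes, 46 were tested and 0 passed, 8 had both HFD+Cana mice above and 8 had both below, and the median was -0.01. Either count is 17.4% of those tested, against 24.3% of all genes above and 19.8% below. The 4 with the smallest p were Hspb2, Cryab, Bag1 and Hsf2. Cryab, αB-crystallin, a small heat shock protein like Hspb1, had 240 and 284 TPM in HFD+Cana mice, against 386 and 363 TPM in HFD mice (difference -0.52, SE 0.12, limma adjusted p = 0.283). Hspb2, another small heat shock protein, had 4.13 and 5.02 TPM in HFD+Cana mice, against 7.64 and 9.59 TPM in HFD mice (difference -0.78, SE 0.16, limma adjusted p = 0.268). Both HFD+Cana mice were lower for either gene, as for Hspb1, without passing the test. Cryab and Hspb2 are neighbours on opposite strands, and the positions of the genes overlap on chromosome 9. Both are also abundant in muscle. The 11 skeletal muscle markers summed to 164 and 249 TPM in HFD+Cana mice, against 281 and 339 TPM in HFD mice, and 9 of the 10 tested had a fold change below 0. The 8 smooth muscle and pericyte markers summed to 765 and 734 TPM in HFD+Cana mice, against 793 and 1078 TPM in HFD mice, and 7 of the 8 had a fold change below 0. Both HFD+Cana mice were the lower ones in either sum. By marker, both were below both HFD mice in 3 of the 10 skeletal muscle markers tested and 4 of the 8 others, against 19.8% of all genes. HFD replicate 2 was the highest mouse in 10 skeletal muscle markers and in 7 smooth muscle and pericyte markers, as for Hspb2 but not for Cryab. The part of muscle was not tested. Bag1, a nucleotide exchange factor of HSP70, had 200 and 222 TPM in HFD+Cana mice, against 176 and 177 TPM in HFD mice (difference 0.25, limma adjusted p = 0.449). Hsf2, a relative of HSF1, had 8.86 and 8.23 TPM in HFD+Cana mice, against 6.81 and 7.18 TPM in HFD mice (difference 0.25, limma adjusted p = 0.489).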

How the data were processed

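RNA of gWAT from 2 HFD+Cana and 2 HFD mice was sequenced with a stranded mRNA kit. The authors ran nf-core/rnaseq 3.12.0 with default options on nextflow 23.10.0, and the deposited values are Salmon's gene TPM, which sum to 1000000 in each sample. GRCm38 (mm10) and R 4.3.2 are credited to the submitters' processing notes, and the sources used here do not give the annotation release. Groups were taken from the sample labels. TPM keeps no depth, so the precision of a value rests on the spread between mice. Through eBayes, the SE and interval of a difference also draw on the spread of all genes tested.

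Members were matched by gene symbol. The members and lists were chosen with earlier results of these data known. Every member is named. From each wider list the 4 genes of smallest p are named, and from marker lists at most 3 in list order. The hepatocyte markers depart from this order: Ttr is named without Alb, which stands before it, and Hp was named after its values were seen. The 13788 genes that averaged 1 TPM or more were fitted with limma 3.58.1 in R 4.3.3 (eBayes with trend, group only) on log2(TPM + 1). The model was checked on simulated data in which the spread of a gene depended on its level only. That check does not cover genes with more spread than their level gives, as many immediate early genes had. Gene positions and transcripts came from GENCODE M21. RefSeq promoter windows were not used for Myc, Egr3, Klf10, Ier2, Hsp90aa1, Hspa8 and Egr1. Alternatives were other pseudocounts (0.1, 5), filters (none, mean of at least 5 TPM), quantile and median-of-ratios scaling, TPM without mitochondrial genes, other eBayes settings, a replicate block, and leaving out each mouse.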

Additional observations from a re-analysis of the deposited data

How the results depend on the processing

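Over the 14 alternatives no member had an adjusted p under 0.05, and the lowest was 0.166. Of the 36 members, 13 kept the sign of their difference in every alternative in which they were tested, among them Ier3, Klf2, Klf4, Klf6, Zfp36, Socs3, Hspa1a, Hspa1b and Hspb1, and 23 turned it when a mouse was left out. The median log2 fold change of the immediate early genes was 0.25 without HFD replicate 1 and ran from -0.031 to 0.25 when each mouse was left out in turn, and that of the heat shock genes ran from -0.17 to 0.089, lowest without HFD replicate 2. Members with both HFD+Cana mice above both HFD mice then numbered 8 to 16 for immediate early and 2 to 6 for heat shock genes, and those below numbered 0 to 10 and 1 to 6, while 36.1% to 43.5% of all genes were above and 29.9% to 38.4% below. A lone mouse was assumed to vary like the other group, and the cause was not tested.

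The 23 differences that turned sign ran, when a mouse was left out, as follows, on the log2(TPM + 1) scale: Fos -0.37 to 0.79, Fosb -0.46 to 0.56, Fosl2 -0.44 to 0.18, Jun -0.19 to 0.18, Egr1 -0.82 to 0.44, Egr2 -0.35 to 0.25, Egr3 -0.41 to 0.15, Nr4a1 -1.0 to 0.84, Nr4a2 -0.15 to 0.21, Nr4a3 -0.18 to 0.14, Klf10 -0.069 to 0.089, Dusp1 -0.27 to 0.27, Dusp2 -0.084 to 0.25, Dusp5 -0.12 to 0.54, Dusp6 -0.21 to 0.25, Btg2 -0.54 to 0.091, Myc -0.0022 to 0.52, Dnajb1 -0.013 to 0.059, Hsph1 -0.44 to 0.26, Hsp90aa1 -0.26 to 0.11, Hspa8 -0.28 to 0.27, Hspd1 -0.040 to 0.0069 and Bag3 -0.17 to 0.023. Of the 13 that kept their sign, 9 also moved by over 1.5 times on leaving out a mouse: Junb 0.051 to 0.47, Jund 0.11 to 0.45, Ier2 -0.27 to -0.017, Ier5 0.099 to 0.44, Klf6 0.093 to 0.30, Zfp36 0.077 to 0.27, Socs3 0.33 to 1.0, Hspa1b 0.22 to 0.66 and Hspb1 -0.33 to -0.097. The other 4 ran from 0.63 to 0.95 (Ier3), 0.35 to 0.51 (Klf2), 0.36 to 0.47 (Klf4) and 0.37 to 0.42 (Hspa1a). Scaling turned 9 of the 23 by small amounts. Under quantile normalization Fosb was at -0.028, Nr4a2 at -0.054, Nr4a3 at -0.0015, Jun at 0.0035, Dusp1 at 0.023 and Hspd1 at 0.044. Under median-of-ratios scaling Klf10 was at -0.014, Dusp6 at -0.0040 and Dnajb1 at -0.00026. Without mitochondrial genes Jun was at 0.0019 and Dusp1 at 0.0070.

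Same-numbered mice deviated from their group means with a correlation of 0.178 across genes, and 2 pairs that share only a number do not pair the samples. With the replicate block 0 members passed, the medians stayed at 0.05 and -0.02, and 2 genes in all passed, against 6 without it. No gene passed with a pseudocount of 0.1, quantile normalization, no filter, a filter at 5 TPM or any mouse left out, and 13 passed without the eBayes trend.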

Other observations

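Genes often used as constant references were read in the same fit, as values with no explanation. Of 12 such genes 0 passed the test, 2 had both HFD+Cana mice above both HFD mice and 5 had both below, and their median log2 fold change was -0.10, against 0.02 for all genes tested. That is 16.7% above and 41.7% below, against 24.3% and 19.8% of all genes tested. Tbp, the TATA-binding protein, had 22.7 and 21.7 TPM in HFD+Cana mice, against 14.6 and 14.4 TPM in HFD mice, a difference of 0.58 (SE 0.09, limma adjusted p = 0.208). The gap between its groups was many times the spread within them. Actb, cytoplasmic actin, had 2081 and 1873 TPM in HFD+Cana mice, against 2465 and 2141 TPM in HFD mice, and Gapdh, an enzyme of glycolysis, had 1434 and 1518 TPM in HFD+Cana mice, against 1790 and 1553 TPM in HFD mice. The HFD mice were higher for either gene, and neither passed the test.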
